A study of Mus musculus with 12 samples.

Results

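The expression of 40 ribosome biogenesis genes was compared in mouse bone marrow-derived macrophages given hepcidin or PBS for 1 h or 3 h. The genes were taken as a list of nucleolar ribosome assembly factors and RNA polymerase I genes, and all 40 were found among the 24675 named genes of the arrays, each with 1 probe set. The list was chosen with earlier results of these data known, so its shares beside all genes describe it and are no independent test. They were sorted into 6 roles: RNA polymerase I transcription, nucleolar scaffolds and chaperones, box C/D and U3 small nucleolar ribonucleoproteins (snoRNPs), box H/ACA snoRNPs, small subunit assembly and large subunit assembly.

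Ribosomes are built mostly in the nucleolus. RNA polymerase I transcribes the long precursor of the 18S, 5.8S and 28S ribosomal RNAs, snoRNPs guide its chemical modification, and many assembly factors fold and cut it into the small (40S) and large (60S) subunits. Growth factors raise the whole programme, largely through the transcription factor MYC, and cells that lose growth signals lower it. In macrophages the growth factor is M-CSF.

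The macrophages were grown from the marrow of wild-type mice aged 8 to 10 weeks, over 7 days in a medium conditioned by L cells, a source of M-CSF. After reseeding with 15% of that medium they were moved to DMEM alone for 1 h before the peptide or PBS was added, and this step was common to all groups. The 12 Affymetrix arrays formed 4 groups of 3: PBS at 1 h, hepcidin at 1 h, PBS at 3 h and hepcidin at 3 h. Hepcidin is a liver hormone that lowers the release of iron from cells by acting on ferroportin, their iron exporter. The dose is not settled, since the labels give 1 µg/ml in one protocol and 10 µg/ml in another. Whether the 3 samples of a group are separate animals or cultures is not stated, so the p-values rest on a spread that could be technical only.

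All values are deposited expression values read as log2, and a gene is said to have risen or fallen where its adjusted p in limma was under 0.05. Every member lay above the middle of the array's signal: the lowest mean over the 12 arrays was 5.99, against a median of 4.87 over all genes. Array medians ran from 4.84 to 4.94, arrays of a group correlated with r between 0.994 and 0.997, and the number of arrays limits the precision to a median standard error of 0.10 for a difference. The inflammatory genes Tnf and Nfkbia were higher with hepcidin by 3.60 and 2.39 at 1 h and by 2.67 and 1.84 at 3 h, and Cxcl2 by 6.12 and 5.26. Slc40a1, which encodes ferroportin, differed by -0.09 at 1 h and -0.14 at 3 h and did not pass. All 8 macrophage markers on the array lay above the median signal, with array means from 10.80 to 10.98, while 0 of 8 dendritic, 0 of 6 erythroid, 1 of 8 lymphocyte, 3 of 8 fibroblast and 4 of 10 neutrophil markers did.

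The members' DNA is shown first, because MYC and its partners bind the E-box letters CACGTG. In the RefSeq promoter windows of GRCm38.p6, from 250 bases before to 50 after each gene's start, 34 members were listed. Npm1, Fbl, Rrp12, Bop1, Rrs1 and Gnl2 had no window and were not scanned, so whether they hold the E-box is not known here. CACGTG, which reads the same on both strands, stood in 8 of these 34 windows (23.5%): Rrn3, Utp18, Utp20, Wdr43, Ltv1, Pes1, Nop2 and Mdn1. The share was 8.09% of all 27025 genes with a window, 8.91% of 17491 protein-coding genes and 11.7% of 9541 genes above the median signal. The members' windows held a median of 24 CpG pairs, against 7 over all genes and 21 over genes above the median signal. Below are the sites of Wdr43 and Mdn1, members with a difference past the threshold, and of Rrn3 and Nop2, the members with an unadjusted p under 0.05 at 1 h. This choice was made after the values were seen, and capitals mark the E-box.
Wdr43 (chr17:71616220-71616249, plus strand, 17 bases after the start): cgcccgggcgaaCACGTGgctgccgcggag
Mdn1 (chr4:32657145-32657168, plus strand, 38 bases after the start): gaattccttcacCACGTGtgtgtc
Rrn3 (chr16:13780639-13780668, plus strand, 48 bases before the start): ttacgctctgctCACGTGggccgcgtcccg
Rrn3 (chr16:13780472-13780501, plus strand, 215 bases before the start): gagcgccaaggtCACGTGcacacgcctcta
Nop2 (chr6:125131811-125131840, plus strand, 60 bases before the start): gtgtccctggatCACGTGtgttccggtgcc

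The 250 bases upstream of Nop56, a member past the threshold both with hepcidin at 3 h and between the PBS groups, are shown as a CpG-rich example without the E-box (chr2:130274162-130274411, plus strand, 65.2% G and C, with its 25 CpG pairs in capitals).
Nop56: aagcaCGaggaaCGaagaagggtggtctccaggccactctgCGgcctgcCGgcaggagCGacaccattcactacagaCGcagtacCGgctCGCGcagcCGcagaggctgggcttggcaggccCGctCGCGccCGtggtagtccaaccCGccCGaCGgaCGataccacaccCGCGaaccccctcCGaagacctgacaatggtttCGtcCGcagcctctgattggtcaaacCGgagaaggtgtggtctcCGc
A match is a description of the letters in the window and not a binding site.

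The plainest feature of the 40 genes, a list chosen with earlier results known, was their position in the PBS arrays of 3 h. The PBS 3 h group had the lowest mean of the 4 groups in 36 of 40 members (90%), against 26.5% of all genes and 25.1% of genes above the median signal. The exceptions were Rrn3, lowest in PBS at 1 h, Ddx10, lowest in hepcidin at 1 h, and Ncl and Npm1, lowest in hepcidin at 3 h. Hepcidin at 1 h held the highest mean in 25 members (62.5%), hepcidin at 3 h in 9 (22.5%), PBS at 1 h in 5 (12.5%) and PBS at 3 h in 1 (2.5%). The shares over all genes, in the same order, were 21.9%, 33%, 21.6% and 23.4%.

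Seen by array, the members' median deviation from each gene's own mean was -0.23, -0.12 and -0.16 in the PBS arrays of 3 h. It was -0.002, 0.07 and 0.11 in PBS at 1 h, 0.09, 0.10 and 0.11 in hepcidin at 1 h, and 0.03, 0.06 and 0.002 in hepcidin at 3 h. The PBS arrays of 3 h therefore lay below the other 9 arrays, while the median over all genes stayed between -0.01 and 0.02 in every array. The comparisons of hepcidin with PBS at 3 h and of PBS over time share those 3 PBS arrays, so a low value in them enters both, with opposite sign.

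**Figure D1:**
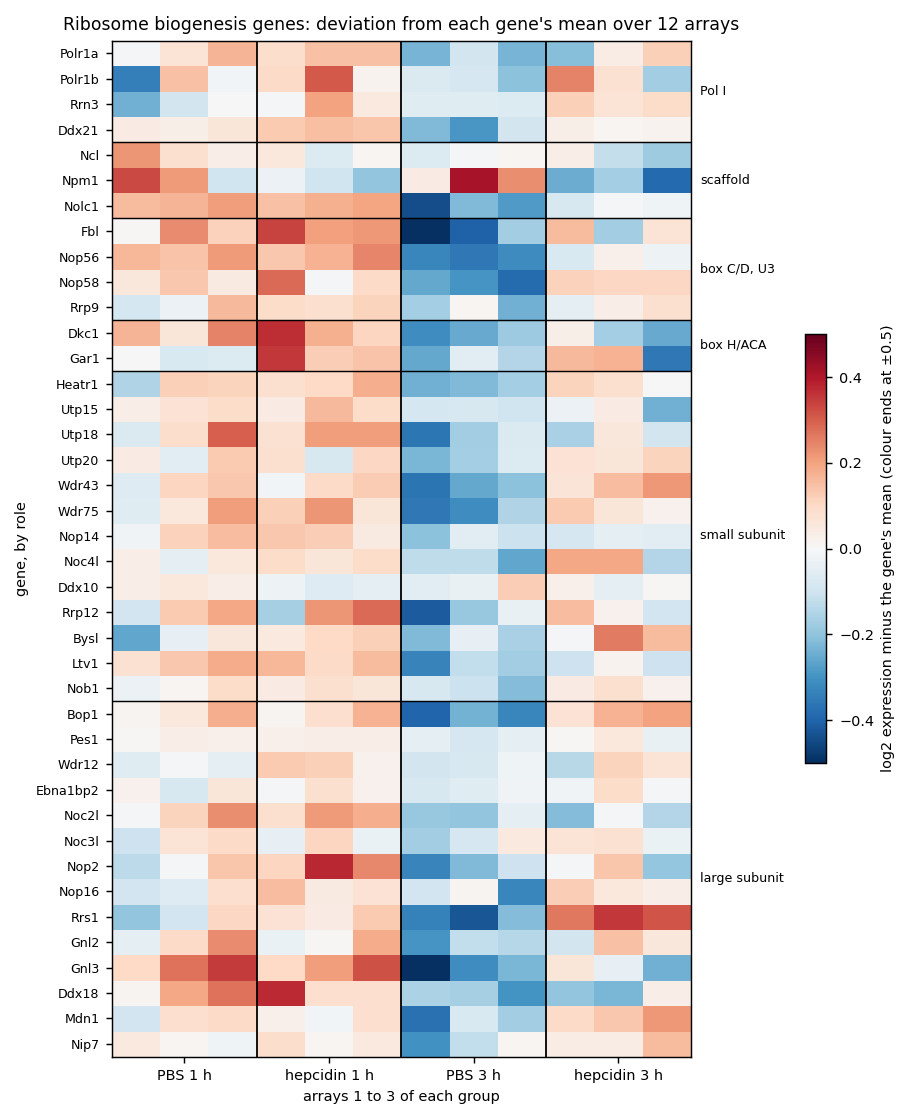
Each row is 1 of the 40 genes, grouped by role, and each column 1 of the 12 arrays; colour is the log2 expression minus the gene's mean over all arrays, ending at ±0.5. The columns of PBS at 3 h are the lowest, with medians of -0.23, -0.12 and -0.16, and Npm1 is the row that departs most from this.

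At 1 h, 0 of 40 members passed the threshold with hepcidin in limma, and 2 (Rrn3 and Nop2) had an unadjusted p under 0.05. Over all genes 130 were higher (0.527%) and 8 lower (0.0324%), and 1683 of 24675 had an unadjusted p under 0.05 in limma. Member changes ran from -0.26 for Npm1 to 0.25 for Gar1, a core protein of H/ACA snoRNPs, with a median of 0.04 against -0.002 for all genes, and 32 of 40 lay above 0 (49.2% of all genes did). The 95% intervals of the 40 changes lay between -0.52 and 0.53. Groups did not overlap in 4 members on the higher side, Ddx21, Gar1, Noc4l and Wdr12, and in 1 on the lower side, Ddx10, against 6.47% and 5.86% of all genes.

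At 3 h with hepcidin, 8 of 40 members rose and 1 fell. Those that rose were Nop56 and Nop58 of the box C/D snoRNP, Nolc1, the small subunit factors Wdr43 and Wdr75, and the large subunit factors Bop1, Rrs1 and Mdn1, by 1.21-fold to 1.56-fold. Npm1, the histone and ribosome chaperone nucleophosmin, fell 1.41-fold. Over all genes 692 were higher (2.8%) and 624 lower (2.53%). The members' median change was 0.19, against 0.02 for all genes and -0.01 for genes above the median signal, and 37 of 40 lay above 0 (54.4% of all genes did). The groups did not overlap in 20 members on the higher side and 1 on the lower, against 11.8% and 9.9% of all genes. Without hepcidin 3 h array 1, 5 members passed (Nop56, Nop58, Wdr43, Bop1 and Rrs1), and a fit of only the 6 arrays of 3 h left 4 (Nop58, Wdr43, Bop1 and Rrs1).

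Between the PBS groups, 4 of 40 members fell from 1 h to 3 h and 0 rose in limma, and 23 had an unadjusted p under 0.05. They were Nop56, Nolc1, Bop1 and Gnl3, with falls of 1.32-fold to 1.53-fold. Over all genes 60 fell (0.243%) and 51 rose (0.207%), and 2619 of 24675 had an unadjusted p under 0.05 in limma. The members' median change was -0.23, against -0.004 for all genes. In 38 of 40 the change lay below 0 (51.2% of all genes), the other members being Npm1 (0.08) and Rrn3 (0.04). In 24 members the PBS arrays of 3 h all lay below those of 1 h, and in 0 members above, against 9.04% and 8.66% of all genes. Without PBS 1 h array 2 or 3 or PBS 3 h array 3, 1 member passed (Nop56), and without PBS 1 h array 1, PBS 3 h array 1 or 2, hepcidin 1 h array 2 or 3 or hepcidin 3 h array 2, 2 passed (Nop56 and Nolc1). A fit of only the PBS arrays left 0 members, whereas fits with a trended prior or over the genes above the median signal gave 9.

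**Figure D2:**
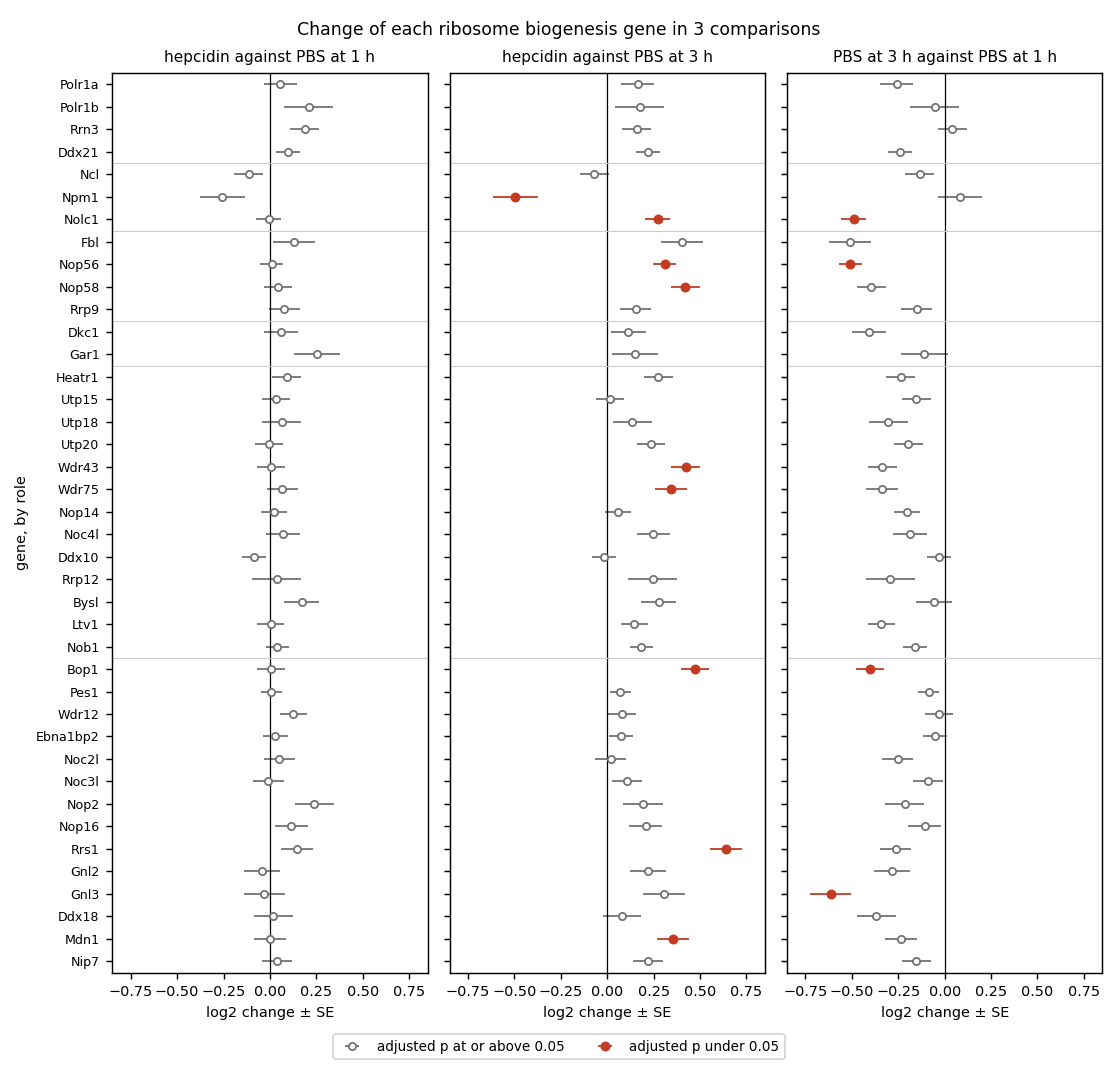
Points are log2 changes of the 40 genes with limma's standard errors as bars, in 3 panels for hepcidin against PBS at 1 h, at 3 h and PBS over time; filled points have an adjusted p under 0.05. The 1 h panel has 0 filled points, the 3 h panel has 8 to the right of 0 and Npm1 to the left, and the PBS panel has 4, all to the left.

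The RNA polymerase I genes are taken first. Polr1a and Polr1b encode the largest subunits of the enzyme, Rrn3 the factor that makes it able to start, and Ddx21 a helicase tied to its transcription and to processing of the product. In limma 0 of these 4 passed in any of the 5 comparisons (an unadjusted p under 0.05 was found for 2 between the PBS groups and for 1 with hepcidin at each time), and their changes with hepcidin at 3 h ran from 0.16 to 0.22. Ddx21 (Entrez gene 56200) read 8.65, 8.64 and 8.67 in PBS at 1 h and 8.74, 8.76 and 8.75 with hepcidin at 1 h. Its values were 8.39, 8.32 and 8.52 in PBS at 3 h and 8.64, 8.62 and 8.63 with hepcidin at 3 h. The 3 h groups did not overlap, and the difference was 0.22 (SE 0.06, limma adjusted p = 0.0767), so it did not pass. Of 13 other RNA polymerase I genes, 1 rose with hepcidin at 3 h (2.8% of all genes did), the subunit gene Polr1c, by 0.26. Its call was lost without any of 11 of the 12 arrays, the exception being hepcidin 3 h array 1 (highest adjusted p 0.144 in limma).

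Among the scaffolds and chaperones, Npm1 (Entrez gene 18148) went the other way from most members. It read 8.22, 8.59 and 8.41 in PBS at 3 h and 7.93, 8.01 and 7.79 with hepcidin, so that all hepcidin arrays lay below all PBS arrays. The difference was -0.50 (SE 0.12, limma adjusted p = 0.0309). At 1 h it read 8.51, 8.39 and 8.08 in PBS and 8.15, 8.08 and 7.98 with hepcidin, groups that overlapped, and the difference of -0.26 had an adjusted p of 0.738 in limma. The 3 h call was lost without PBS 3 h array 2 or 3 or hepcidin 3 h array 1 or 3, with an adjusted p of up to 0.136. Npm1 has many processed pseudogene copies in the mouse genome, and how far its probes read them is not known here, so its value is uncertain.

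Nolc1 (Entrez gene 70769), a phosphoprotein that chaperones snoRNPs, read 7.87, 7.88 and 7.92 in PBS at 1 h and 7.86, 7.89 and 7.91 with hepcidin at 1 h. In PBS at 3 h it read 7.27, 7.49 and 7.43, and with hepcidin 7.63, 7.70 and 7.69. All 6 arrays of 1 h lay above all 6 of 3 h, and at 3 h the hepcidin arrays lay above those of PBS. The fall between the PBS groups was 1.40-fold (-0.49, SE 0.07, limma adjusted p = 0.00989), and the rise with hepcidin at 3 h was 1.21-fold (0.27, SE 0.07, limma adjusted p = 0.0381). The call with hepcidin was kept only without hepcidin 1 h array 1 or PBS 3 h array 2 and was lost without each other array (adjusted p up to 0.138). The PBS call was lost without PBS 1 h array 2 or 3 or PBS 3 h array 3 (up to 0.0575). Ncl, nucleolin, differed by -0.07 with hepcidin at 3 h and by -0.14 between the PBS groups and passed in neither.

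The box C/D class had the largest median of the 6 roles in both comparisons, 0.36 with hepcidin at 3 h and -0.45 between the PBS groups. Its proteins carry out the 2′-O-methylation of ribosomal RNA: Fbl (fibrillarin) is the methyltransferase, Nop56 and Nop58 form its scaffold, and Rrp9 belongs to the U3 snoRNP that helps the first cuts. Nop56 (Entrez gene 67134) read 9.50, 9.48 and 9.55 in PBS at 1 h, 9.47, 9.51 and 9.58 with hepcidin at 1 h, 9.01, 8.98 and 9.02 in PBS at 3 h and 9.26, 9.36 and 9.31 with hepcidin at 3 h. The 3 h hepcidin arrays thus lay between those of PBS at 3 h and all arrays of 1 h, with no overlap. Nop56 fell 1.42-fold between the PBS groups (-0.51, SE 0.06, limma adjusted p = 0.00464) and rose 1.24-fold with hepcidin at 3 h (0.31, SE 0.06, limma adjusted p = 0.00965). Both calls held without any 1 array and were lost in fits of only the groups compared (adjusted p = 0.0551 and 0.0612 in limma).

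Nop58 (Entrez gene 55989) read 8.82, 8.78 and 8.69 in PBS at 3 h and 9.19, 9.18 and 9.18 with hepcidin at 3 h. In the arrays of 1 h it read 9.13, 9.21 and 9.12 with PBS and 9.36, 9.07 and 9.17 with hepcidin, so the hepcidin 3 h values lay within the range of the 1 h arrays. The rise at 3 h was 1.34-fold (0.42, SE 0.08, limma adjusted p = 0.00595) and held without any 1 array, and the difference between the PBS groups was -0.39 (adjusted p = 0.0545 in limma), just short of the threshold.

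Fbl (Entrez gene 14113) had changes as large but wider groups. It read 6.88, 7.11 and 6.99 in PBS at 1 h, 7.21, 7.08 and 7.09 with hepcidin at 1 h, 6.28, 6.47 and 6.70 in PBS at 3 h and 7.03, 6.70 and 6.94 with hepcidin at 3 h. The 3 h groups met at 6.70. Neither the 0.40 with hepcidin at 3 h (SE 0.11, limma adjusted p = 0.0648) nor the -0.51 between the PBS groups (adjusted p = 0.0846) passed. Rrp9 differed by 0.15 and -0.15 and passed in neither.

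In the box H/ACA class, which converts uridines of ribosomal RNA to pseudouridine, Dkc1 (Entrez gene 245474) encodes the enzyme dyskerin. It read 7.71, 7.60 and 7.79 in PBS at 1 h and 7.91, 7.72 and 7.65 with hepcidin at 1 h. At 3 h it read 7.23, 7.29 and 7.36 in PBS and 7.57, 7.37 and 7.29 with hepcidin. The 3 h arrays lay below the 1 h arrays whether PBS or hepcidin was given, and the 3 h groups overlapped each other. It was the only member past the threshold between the hepcidin groups, where it fell 1.28-fold (-0.35, SE 0.09, limma adjusted p = 0.0498). That call was lost without any of 11 of the 12 arrays, the exception being hepcidin 3 h array 1 (adjusted p up to 0.183), and its difference between the PBS groups was -0.41 (adjusted p = 0.0949 in limma).

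The small subunit class holds 13 factors of the processome, the large particle that folds and cuts the 18S precursor, and of later 40S maturation. With hepcidin at 3 h, 2 of 13 rose (2.8% of all genes did), 12 of 13 lay above 0 and the median was 0.24. Between the PBS groups 0 of 13 passed in limma (9 with an unadjusted p under 0.05), and all 13 lay below 0 with a median of -0.20. The largest values there were Ltv1, a 40S export factor, at -0.34 (limma adjusted p = 0.0676), Wdr75 at -0.34 and Wdr43 at -0.34.

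Wdr43 (Entrez gene 72515), a processome subunit, read 8.63, 8.74 and 8.79 in PBS at 3 h and 9.06, 9.15 and 9.21 with hepcidin at 3 h. In the arrays of 1 h it read 8.93, 9.10 and 9.13 with PBS and 8.98, 9.09 and 9.12 with hepcidin, so only the PBS 3 h group stood apart. The rise was 1.34-fold (0.42, SE 0.08, limma adjusted p = 0.00632), and it held without any 1 array. Wdr75 (Entrez gene 73674), of the same particle, read 7.87, 7.92 and 8.08 in PBS at 3 h, 8.36, 8.29 and 8.25 with hepcidin at 3 h, 8.17, 8.28 and 8.44 in PBS at 1 h and 8.35, 8.45 and 8.29 with hepcidin at 1 h. Again the PBS arrays of 3 h lay below all others. The rise was 1.27-fold (0.34, SE 0.09, limma adjusted p = 0.0365) and was lost without PBS 1 h array 2, PBS 3 h array 1 or 2 or any hepcidin array of 3 h (adjusted p up to 0.13).

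The other 11 small subunit members did not pass with hepcidin at 3 h. They ran from -0.02 for Ddx10, an RNA helicase, to 0.28 for Bysl, a 40S maturation factor, and 0.28 for Heatr1, a processome scaffold with a limma adjusted p of 0.0695. Heatr1, Utp20, Bysl, Ltv1 and Nob1, the nuclease that makes the last cut of 18S RNA, had hepcidin arrays that all lay above those of PBS. Of 39 other small subunit genes, 4 rose with hepcidin at 3 h (2.8% of all genes did): Tsr1 by 0.53, Nol11 by 0.32, Utp11 by 0.31 and Utp4 by 0.28. Their median was 0.12, and -0.13 between the PBS groups, where 0 passed in limma (15 with an unadjusted p under 0.05). Each of these 4 calls was lost without at least 1 array of the 3 h groups: Utp11 without PBS array 2 or 3 or hepcidin array 2, Nol11 without any PBS array or hepcidin array 1 or 3, Tsr1 without any PBS array or hepcidin array 2 or 3, and Utp4 without any of the 6 or PBS 1 h array 2 or 3 or hepcidin 1 h array 3 (adjusted p up to 0.117 in limma).

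The large subunit class holds 14 factors of the 60S path. With hepcidin at 3 h, 3 of 14 rose (2.8% of all genes did), all 14 lay above 0 and the median was 0.20. Between the PBS groups 2 of 14 fell (0.243% of all genes did), all 14 lay below 0 and the median was -0.23.

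Rrs1 (Entrez gene 59014), which brings the 5S RNA particle to the growing large subunit, had the largest rise of the 40 members at 3 h. It read 6.36, 6.27 and 6.48 in PBS at 3 h and 6.96, 7.05 and 7.01 with hepcidin, a gap wider than the spread of either group. The rise was 1.56-fold (0.64, SE 0.09, limma adjusted p = 0.000577). In the arrays of 1 h it read 6.50, 6.60 and 6.80 with PBS and 6.77, 6.74 and 6.83 with hepcidin, so the hepcidin arrays of 3 h were the highest of all 12. Between the hepcidin groups the difference was 0.23 (limma adjusted p = 0.185).

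Bop1 (Entrez gene 12181) is the partner of Pes1 and Wdr12 in the PeBoW complex, which processes the 28S and 5.8S precursor. It read 7.41, 7.57 and 7.48 in PBS at 3 h, below all other arrays, and 7.88, 7.98 and 8.01 with hepcidin at 3 h. The 1 h arrays read 7.82, 7.86 and 7.99 with PBS and 7.82, 7.89 and 7.98 with hepcidin, overlapping the range of hepcidin at 3 h. Bop1 rose 1.39-fold with hepcidin at 3 h (0.47, SE 0.08, limma adjusted p = 0.00229) and fell 1.32-fold between the PBS groups (-0.40, SE 0.08, limma adjusted p = 0.0447). The PBS call was lost without any of 11 of the 12 arrays, the exception being hepcidin 1 h array 1 (adjusted p up to 0.167). Its partners moved less: Pes1 differed by 0.07 and -0.09 and Wdr12 by 0.08 and -0.03 in the same comparisons, and the difference between partners was not tested.

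Mdn1 (Entrez gene 100019), the giant ATPase that strips assembly factors from the large subunit, read 7.00, 7.30 and 7.20 in PBS at 3 h and 7.47, 7.51 and 7.59 with hepcidin at 3 h. Its 1 h arrays read 7.28, 7.46 and 7.47 with PBS and 7.40, 7.36 and 7.46 with hepcidin. The hepcidin arrays of 3 h lay at or above all others, and the rise was 1.28-fold (0.35, SE 0.09, limma adjusted p = 0.0328). The call was lost without PBS 3 h array 1 or 3 or any hepcidin array of 3 h (adjusted p up to 0.12).

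Gnl3 (Entrez gene 30877), nucleostemin, a GTP-binding protein of the nucleolus, had the largest fall between the PBS groups. It read 8.52, 8.69 and 8.77 at 1 h and 7.83, 8.11 and 8.19 at 3 h, without overlap, a fall of 1.53-fold (-0.61, SE 0.11, limma adjusted p = 0.0380). With hepcidin it read 8.52, 8.63 and 8.74 at 1 h and 8.48, 8.38 and 8.18 at 3 h, and the 3 h groups overlapped, with a difference of 0.31 (limma adjusted p = 0.168). The PBS call was kept only without hepcidin 1 h array 1 or hepcidin 3 h array 1 or 3, and was lost without each other array (adjusted p up to 0.146).

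**Figure D3:**
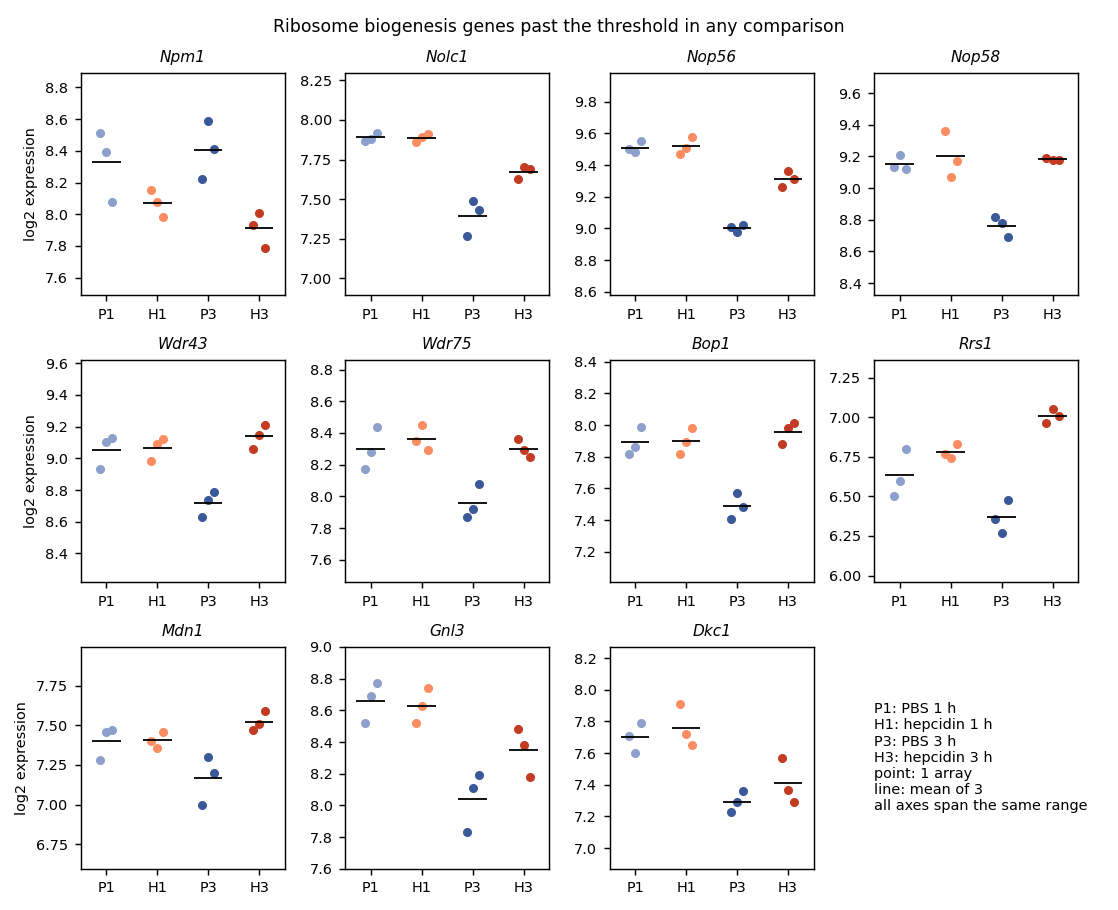
Log2 expression of the 11 genes past the threshold in any comparison, with 1 point per array, a line at the mean of 3, and groups P1 (PBS 1 h), H1 (hepcidin 1 h), P3 (PBS 3 h) and H3 (hepcidin 3 h); every axis spans the same range. P3 is the lowest group in 10 of the 11 panels, and in Npm1 the lowest group is H3. Most of these genes passed in a comparison that includes P3, so P3 at an end of the range is partly built into the choice.

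The other 10 large subunit members (Pes1, Wdr12, Ebna1bp2, Noc2l, Noc3l, Nop2, Nop16, Gnl2, Ddx18 and Nip7) passed in neither comparison and ran from 0.02 for Noc2l to 0.22 for Gnl2 with hepcidin at 3 h. Of 45 other large subunit genes on the array, 5 rose with hepcidin at 3 h (2.8% of all genes did). They were Eif6, which keeps the subunits apart, by 0.43, the GTPase gene Gtpbp4 by 0.40, Urb1 by 0.37, Sdad1 by 0.29 and Nmd3, the 60S export adaptor, by 0.28. Their median was 0.15, and -0.14 between the PBS groups, where Nmd3 (-0.36) and Nifk (-0.36) fell. The call of Urb1 was lost without any PBS array of 3 h or hepcidin 3 h array 1 or 3 (adjusted p up to 0.0759 in limma), and that of Nmd3 without any of the 6 arrays of 3 h (up to 0.107). The PBS calls were lost without most arrays: Nifk kept its call without 1 of the 12 (hepcidin 1 h array 1) and Nmd3 without 2 (hepcidin 1 h array 1 and hepcidin 3 h array 3), with an adjusted p of up to 0.174.

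Neighbouring machineries gave small medians at 3 h with hepcidin. Of 9 other snoRNP genes 1 rose, the assembly factor Znhit6 by 0.36, of 13 RNA exosome genes 1, Exosc1 by 0.28, and of 21 RNA polymerase III genes 1, Gtf3c5 by 0.54. Over all genes 2.8% rose. Znhit6 was not past the threshold without PBS 3 h array 1 or 3 or hepcidin 3 h array 2, nor Exosc1 without any PBS array of 3 h or hepcidin 3 h array 2 or 3 (adjusted p up to 0.0979 in limma). The medians were 0.10, 0.10 and -0.01. Of 79 cytosolic ribosomal protein genes listed, which encode the subunits' own proteins and have many pseudogene copies, only 56 were on the array. Of these 56, 0 passed in limma in either direction with hepcidin at 3 h (11 with an unadjusted p under 0.05, median 0.08) or between the PBS groups (3, median -0.06). Between the hepcidin groups 1 fell, Rps14 (-0.615, limma adjusted p = 0.0255), a call lost without hepcidin 1 h array 2 or 3 or hepcidin 3 h array 1 (up to 0.112).

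Between the hepcidin groups, from 1 h to 3 h, 0 members rose and 1, Dkc1, fell, against 2.44% and 2.61% of all genes. The median was -0.08, and 30 of 40 members lay below 0 (46.1% of all genes did). Groups did not overlap in 2 members on the higher side, Rrs1 and Mdn1, and in 12 on the lower, against 10.5% and 9.56% of all genes.

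Whether the effect of hepcidin differed between the times was tested directly, as the effect at 3 h minus that at 1 h. Of the 40 members 0 passed in limma, 9 had an unadjusted p under 0.05, and the median was 0.11. Over all genes 0.523% were higher and 0.507% lower, and 2488 of 24675 had an unadjusted p under 0.05 in limma. The largest differences were in Rrs1 (0.49, SE 0.12, limma adjusted p = 0.0972), Bop1 (0.46, SE 0.11, 0.0726) and Wdr43 (0.42, SE 0.11, 0.133), all above 0. The count depended on the fit: Wdr43 and Bop1 passed with the replicate number as a block, Nop56, Wdr43 and Bop1 with a trended prior, Bop1 and Rrs1 over the genes above the median signal, and Nop56 without moderation.

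The MYC network was read beside the members because it acts on this programme. Myc itself was the only gene of the biogenesis and MYC lists to pass at 1 h. It read 7.10, 7.45 and 7.61 in PBS and 8.32, 8.17 and 8.21 with hepcidin at 1 h, and rose 1.80-fold (0.85, SE 0.13, limma adjusted p = 0.00664). At 3 h it read 7.66, 7.98 and 8.04 in PBS and 8.23, 8.15 and 8.31 with hepcidin, groups that did not overlap, and the difference was 0.34 (adjusted p = 0.188 in limma). Between the PBS groups Myc differed by 0.50 (adjusted p = 0.138), while 38 of 40 members lay below 0 there.

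Of 12 network genes, 3 that oppose MYC or compete for its partner MAX fell with hepcidin at 3 h (2.53% of all genes did). Mnt read 7.14, 7.33 and 7.29 in PBS and 6.78, 6.77 and 6.83 with hepcidin at 3 h, without overlap, and fell by 0.46 on the log2 scale (SE 0.08, limma adjusted p = 0.00277). Mxi1 read 7.90, 7.86 and 7.90 against 7.46, 7.47 and 7.68 and fell by 0.35 (limma adjusted p = 0.0146), and Mxd4 fell by 0.44 (limma adjusted p = 0.0408). The call of Mxi1 was lost without PBS 3 h array 3 or hepcidin 3 h array 1 or 2 (adjusted p up to 0.0603), and that of Mxd4 without 9 of the 12 arrays, all of the 3 h arrays among them (up to 0.141). Max differed by -0.05 and Mxd1 by 0.10 at 3 h and did not pass. Mycl rose by 0.55, at a signal below the array median. Between the hepcidin groups, from 1 h to 3 h, Mnt fell by 0.65 and Mycl rose by 0.37 (limma adjusted p = 0.000299 and 0.0426). There the Mnt call was kept without any 1 array, and the Mycl call was kept without only 2 of the 12.

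Of 14 MYC target genes outside the nucleolus, 1 rose with hepcidin at 3 h (2.8% of all genes did), Srm, which encodes spermidine synthase. It read 8.91, 8.93 and 9.04 in PBS at 1 h, 8.95, 8.91 and 9.14 with hepcidin at 1 h, 8.23, 8.31 and 8.23 in PBS at 3 h and 8.61, 8.73 and 8.98 with hepcidin at 3 h. The PBS arrays of 3 h were the lowest, as in most of the ribosome biogenesis genes. Over the 14 target genes the median with hepcidin at 3 h was 0.03, against 0.19 for the members, with 9 above 0 and 5 below. Their median was -0.18 between the PBS groups and -0.19 between the hepcidin groups, against -0.23 and -0.08 for the members. Srm fell by 0.70 between the PBS groups (limma adjusted p = 0.00954), a call lost without PBS 1 h array 3 or PBS 3 h array 3 (up to 0.0546), and rose by 0.51 with hepcidin at 3 h (limma adjusted p = 0.00658). The purine synthesis gene Ppat was the other target gene that fell between the PBS groups (-0.49), a call lost without 9 of the 12 arrays, all 6 PBS arrays among them (adjusted p up to 0.169 in limma). Of 15 proliferation genes 0 passed in limma with hepcidin at 3 h (0 with an unadjusted p under 0.05), and the replication licensing genes Mcm2 (-0.59) and Mcm3 (-0.65) fell between the PBS groups. The call of Mcm3 was lost without 7 of the 12 arrays, among them all PBS arrays of 1 h (up to 0.16). Ppat (-0.58), Mcm2 (-0.56) and Mcm3 (-0.82) also fell between the hepcidin groups from 1 h to 3 h. Those hepcidin calls were kept without any 1 array, so the fall over time was seen with PBS and with hepcidin. The part of these genes in the members' values was not tested.

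**Figure D4:**
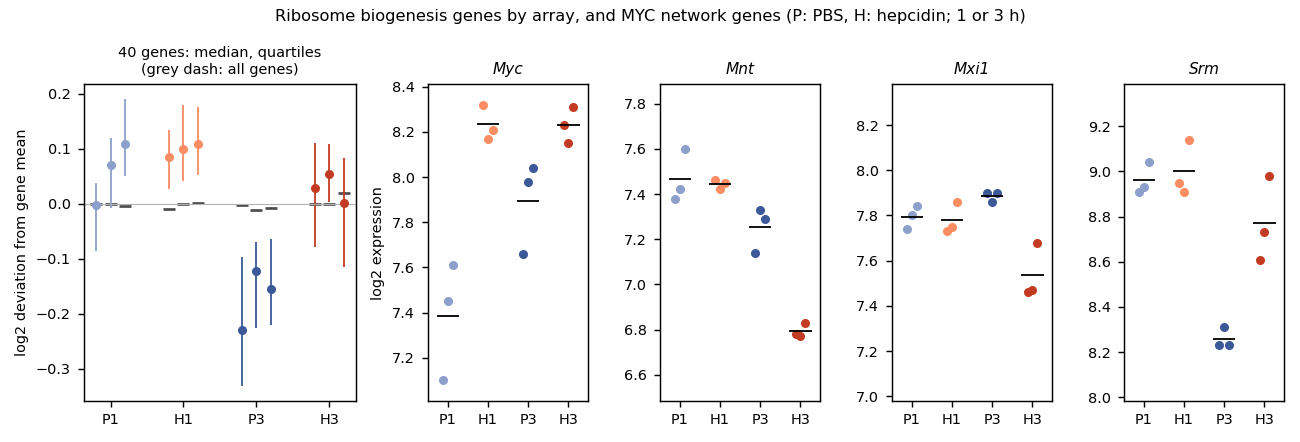
Left, the median and quartiles of the 40 genes' log2 deviation from their own means in each array, with a grey dash for all genes; right, log2 expression of Myc, Mnt, Mxi1 and Srm with 1 point per array and a line at the mean (P, PBS; H, hepcidin; 1 or 3 h). The 40 genes are lowest in the PBS arrays of 3 h, and Myc is highest with hepcidin at both times.

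In the dendritic, erythroid, lymphocyte, fibroblast and neutrophil lists 0 genes passed in limma with hepcidin at 1 h, at 3 h or between the PBS groups, and at most 2 genes of a list had an unadjusted p under 0.05 in any of these. Between the hepcidin groups the neutrophil marker Mpo fell by 0.62 (limma adjusted p = 0.0274), a call lost without hepcidin 1 h array 2 or 3 or hepcidin 3 h array 1 (up to 0.118). Among the 8 macrophage markers, Cd14 (0.80) and Spi1 (0.30) rose and Mertk (-1.08) fell with hepcidin at 3 h. Between the hepcidin groups Cd14 (0.71) and Spi1 (0.30) rose and Mertk (-1.28) and Fcgr1 (-0.60) fell. In bulk RNA, fewer cells of a type and less RNA per cell cannot be told apart.

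A feature the list did not choose for is that several members carry small nucleolar RNA genes within their span. A spliced-out intron of such a host transcript can yield a guide for ribosomal RNA modification. Spans were compared by position alone, and strand and place within an intron were not checked. In RefSeq spans of GRCm38.p6, 6 of 40 members (15%) held at least 1 snoRNA gene: Nop56, Nop58, Gnl3, Wdr43, Ncl and Dkc1. The share was 1.69% of 19683 protein-coding genes on the array and 2.08% of 11025 above the median signal. Of their 18 snoRNAs, 10 had a probe set of their own, in 5 hosts. With hepcidin at 3 h their median change was -0.02, with a range from -0.57 to 0.36, and between the PBS groups it was 0.05, with 0 past the threshold in limma.

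The snoRNA that passed was Snord70, within Nop58. It read 7.29, 7.96 and 7.51 in PBS at 3 h and 7.09, 7.16 and 6.81 with hepcidin, and fell by 0.57 (SE 0.15, limma adjusted p = 0.0470), whereas Nop58 rose by 0.42. The call was lost without any of 11 of the 12 arrays, the exception being PBS 3 h array 1 (adjusted p up to 0.179). Snord57 and Snord110, within Nop56, differed by -0.08 and 0.02 at 3 h, against 0.31 for Nop56. Other snoRNAs had the sign of their host without passing: Snord53 (0.36) and Snord92 (0.06) within Wdr43 (0.42), Snord19 (0.35) within Gnl3 (0.31) and Snord11 (0.12) within Nop58. So did Snora75 (-0.51) and Snord82 (-0.20) within Ncl (-0.07), while Snord69 within Gnl3 differed by -0.05. Snord92 and Snord19 lay below the array median, at mean signals of 3.99 and 4.26 with SEs of 0.215 and 0.20, so their signs are weakly held. Whether snoRNAs and hosts changed together was not tested.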

How the data were processed

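Gene expression was measured on 12 Affymetrix whole-transcript arrays. The authors deposited 1 value for each of 25429 probe sets per array. These were used as log2 values, since the submitters' processing notes name RMA (with Partek, neither with a version), which returns log2; the labels leave the base unstated. The build of the array annotation is likewise not named, and RefSeq GRCm38.p6 served for names, promoter windows and gene spans.

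Groups came from the sample titles. The 24675 probe sets with a symbol were fitted without an expression filter in R 4.3.3 with limma 3.58.1 (4 group means, 8 residual and 4.11 prior degrees of freedom), and p-values were adjusted over all of them by Benjamini and Hochberg within each of 5 comparisons. Errors are moderated standard errors.

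The members and lists were chosen with earlier results of these data known. Array values are printed for the 11 members past the threshold in any comparison and for the member of each role with the largest distance between any of the 4 group means, which added Ddx21 and Fbl. Of each other list up to 4 passing genes are named, by size, with hepcidin at each time and between the PBS groups. Myc, Max, Mnt, Mxi1, Mxd1 and the label checks are named besides, and changes of the label checks from 1 h to 3 h are not given. Nmd3 at 3 h was added after its value was seen. Between the hepcidin groups further genes of these lists passed that are not named.

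The alternatives, whose effect is given after the report, were each array left out in turn, an adjusted p under 0.1, only the groups compared, array weights, unnamed probe sets added, median centring, renewed quantile normalization, genes above the median signal, no moderation, a trended robust prior, and a block for the replicate number. The procedure was tested on simulated data.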

Additional observations from a re-analysis of the deposited data

Results flagged for a closer look

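No ribosome biogenesis gene was picked out by the tests for outlying groups or for effects that differ between times, and groups of 3 arrays are too small for the outlier test used. Among the genes read beside them, the effect of hepcidin differed between 3 h and 1 h in limma for 3 genes. For Cd14 the effect at 3 h minus that at 1 h was 0.57 on the log2 scale (0.23 at 1 h and 0.80 at 3 h, limma adjusted p = 0.026). For Tnf it was -0.92 (3.60 and 2.67, limma adjusted p = 0.0296). For Nfkbia it was -0.55 (2.39 and 1.84, limma adjusted p = 0.0277). These 3 calls held without 3, 4 and 2 of the 12 arrays, respectively, and were lost without each of the others, with an adjusted p of up to 0.0904.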

How the results depend on the processing

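No median or called change of the members reversed under any alternative. With hepcidin at 1 h, 0 members passed under any of the 22 alternatives. With hepcidin at 3 h, Nop58, Wdr43, Bop1 and Rrs1 passed under all 22 and Nop56 under 21. A fit of only the groups compared left 4 members and 805 genes at 3 h (9 and 1316 in the report), 0 members and 7 genes between the PBS groups (4 and 111), and 0 members and 616 genes between the hepcidin groups (1 and 1246).

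Between the PBS groups, members and genes past the threshold were 9 and 319 with a trended prior, 9 and 333 among genes above the median signal, 2 and 64 after median centring, 8 and 285 with array weights and 9 and 248 at an adjusted p under 0.1, and 2 members passed without moderation. Between the hepcidin groups the members were 3 with a trended prior, 4 above the median signal, 3 at an adjusted p under 0.1, and 0 after quantile normalization, median centring or array weights. For the difference between the times (0 members and 254 genes) the trended prior gave 3 and 433, genes above the median signal 2 and 412, and an adjusted p under 0.1 gave 2 and 391, and 1 member passed without moderation.

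Leaving out 1 array gave 5 to 9 members and 837 to 1287 genes at 3 h. It gave 1 to 5 members, 23 to 126 genes and a median of -0.267 to -0.178 between the PBS groups. Without PBS 1 h array 2 or 3 or PBS 3 h array 3, 1 member passed there. Between the hepcidin groups it gave 0 to 1 member, 721 to 1178 genes and a median of -0.077 to -0.032, and for the difference between the times 0 members, 141 to 234 genes and a median of 0.080 to 0.164.

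Deviations of samples with the same replicate number correlated weakly, and every correlation was above 0 (from 0.003 to 0.246). Deviations sum to 0 within a group, so without pairs these correlations would be expected to scatter around 0. The values share groups and are not independent, samples with different numbers were not compared, and whether the numbers mark pairs was not tested. The labels do not say that they do. The replicate number was used only as an alternative, and the p-values of the report take up no pairing. With the replicate number as a block, 9 members passed at 3 h, 6 between the PBS groups (with 240 genes), 1 between the hepcidin groups (Noc2l in place of Dkc1, whose adjusted p was 0.0506 in limma), and 2 (Wdr43 and Bop1) for the difference between the times.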
